A study of Mus musculus with 6 samples.

Results

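The bile secretion genes outside the ABC, SLCO, SLC22 and nuclear receptor families are 35 genes of bile formation, taken by symbol from a list of the pathway, one that the paper names for these cells. By KEGG analysis the paper reports the bile secretion pathway as enriched among genes that rose in the paclitaxel-resistant line. The 35 genes are only a part of that pathway, and its enrichment was not tested here. All 35 were found among the 21959 genes of the count table. They cover ion, bile acid and glucose carriers, aquaporins, the beta subunits of the sodium pump, the secretin receptor with its cAMP cascade, and a few genes of bile acid chemistry. Of the 35, 20 had enough counts to be tested and 15 did not.

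Bile is made by hepatocytes and altered by cholangiocytes, the epithelial cells of the bile ducts. The sodium pump keeps the gradients on which uptake of bile acids and exchange of ions depend, and water follows the secreted solutes, partly through aquaporins. In cholangiocytes secretin binds its receptor, the G protein alpha subunit encoded by Gnas turns on adenylyl cyclases, and cAMP acts through protein kinase A on the chloride channel Cftr, after which chloride is exchanged for bicarbonate.

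RNA of MPC cells, a mouse gastric adenocarcinoma line, was set against RNA of its derivative MPC-PTX, taken through more than 30 cycles of paclitaxel (PTX), a drug that stabilises microtubules. The paper calls these lines MTC and MTC-R. MPC came from gastric organoids of C57BL/6 J mice with Mist1-CreER and floxed alleles of Trp53 and of Cdh1 (flox/flox for each), in which tamoxifen-activated Cre driven from the Mist1 gene deleted both genes, followed by growth under the skin of BALB/c nude mice. Both lines carry the label CDH1-/-;Trp53-/-, so neither group is free of the deletions, and each was taken through monoclonal selection, so that a difference between them may also be one between clones and cannot be told apart from an effect of PTX. Each line had 3 libraries, all labelled batch 1, and the labels do not say whether replicates were separate cultures, so p-values measure only the spread between these samples.

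The libraries held 16574580 to 23148182 counts. MPC replicates 1 and 3 stood furthest from the MPC mean. Over genes their log2 deviations from it had SDs of 0.28 and 0.3, against 0.2 in replicate 2. The Spearman correlation of these deviations with GC content was 0.47, 0.35 and -0.58 in MPC replicates 1, 2 and 3. Deviations from a mean balance, so the opposite sign of replicate 3 is partly built in. The tissue label was checked against markers. Of 12 gastric epithelium markers 10 had at most 10 counts in every library, with Pgc, Tff1, Tff2 and Gkn2 at 0 throughout, and their sum, carried by Ctse and Anxa10, ranged from 323 to 460 CPM (counts per 1000000 counts of the library) in MPC and from 1.84 to 2.32 CPM in MPC-PTX. The 8 simple epithelium markers (such as Krt8 and Epcam) were all lower in MPC-PTX, with sums of 9560 to 11100 CPM in MPC and 5780 to 5960 CPM in MPC-PTX. The 10 cholangiocyte markers, 4 of them shared with that list or with the bile secretion pathway, summed to 8130 to 8650 CPM in MPC and 6350 to 6440 CPM in MPC-PTX. They went both ways, since of 9 tested 5 were lower (among them the abundant Krt19, Krt7 and Epcam) and 3 were higher (Cftr, Prom1 and Spp1). Hepatocyte markers summed to 2.13 to 3.2 CPM in MPC and 1.17 to 1.79 CPM in MPC-PTX, mostly from Apoh, with Fgb and Serpina1a at 0. The sums in MPC and MPC-PTX were 9.88 to 10.9 and 8.63 to 10 CPM for fibroblast, 11.3 to 12.8 and 9.8 to 10.7 CPM for leukocyte, and 3.4 to 4.89 and 3.2 to 3.39 CPM for endothelial markers. What part these shifts have in the results was not tested. In such bulk RNA fewer cells that express a gene and less RNA per cell cannot be told apart.

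Of the 20 tested members, 5 were higher in MPC-PTX (Aqp1, Adcy3, Slc4a2, Atp1b1 and Atp1b3) and 4 were lower (Adcy1, Aqp4, Adcy6 and Ephx1) (adjusted p below 0.05). The p-values are from the quasi-likelihood test of edgeR, adjusted over all 11795 tested genes by Benjamini and Hochberg's method. Of all tested genes 14.1% were higher and 15.6% lower by this rule. Under the call rule in the study's methods (a log2 fold change beyond 1 in size, with p not adjusted and below 0.05), Aqp1 was higher and Adcy1 and Aqp4 were lower, against 3.77% of all tested genes higher and 4.34% lower. Over the tested members the log2 fold change had a median of 0.08, beside 0.04 for all tested genes. The MPC and MPC-PTX libraries did not overlap in 10 of the 20 members, the 9 called ones and Prkaca, where 46.9% of all tested genes were so separated. Whether the members differ from the transcriptome in these shares was not tested, and they are described by role.

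**Figure D1:**
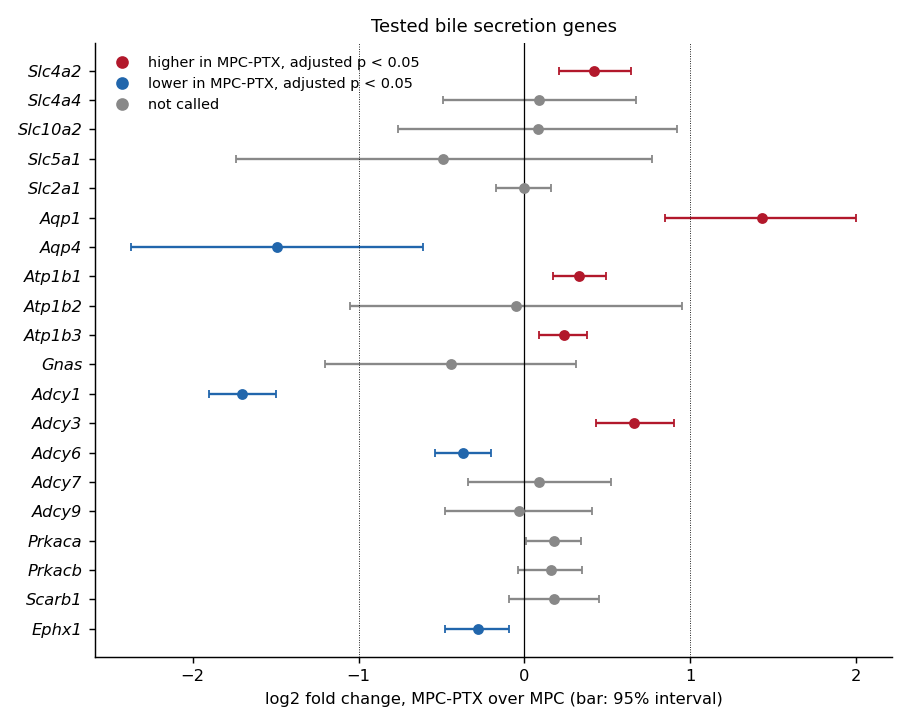
Log2 fold change of MPC-PTX over MPC for the 20 tested members, in order of role, with 95% intervals from the edgeR fit and dotted lines at an absolute value of 1. Points of the 5 called higher are red, of the 4 called lower blue and of the 11 others grey, and Aqp1, Adcy1 and Aqp4 lie beyond the dotted lines.

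The upstream sequences of 3 called members are shown as examples: Aqp1, which rose, Adcy1, which fell, and Adcy3, the cyclase that rose. They were chosen after the values were seen, and that of Aqp4, which fell, is not shown here. Each is the 250 bases before a RefSeq transcription start on GRCm38.p6, plus strand, in lower case, with matches in capitals to the GC box (GGGCGG), the CCAAT box (CCAAT) and the E box (CACGTG), searched on both strands.
Aqp1, chr6:55336049-55336298: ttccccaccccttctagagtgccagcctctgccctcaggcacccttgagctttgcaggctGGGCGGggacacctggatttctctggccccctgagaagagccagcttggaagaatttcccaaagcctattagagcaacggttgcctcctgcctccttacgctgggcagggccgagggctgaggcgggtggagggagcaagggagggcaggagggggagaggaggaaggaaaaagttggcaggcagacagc
Adcy1, chr11:7063183-7063432: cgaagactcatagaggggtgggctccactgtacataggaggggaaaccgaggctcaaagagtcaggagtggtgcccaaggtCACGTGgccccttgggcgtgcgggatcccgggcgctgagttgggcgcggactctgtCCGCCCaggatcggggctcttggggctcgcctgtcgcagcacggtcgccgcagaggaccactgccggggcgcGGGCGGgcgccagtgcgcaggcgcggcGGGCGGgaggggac
Adcy3, chr12:4133147-4133396: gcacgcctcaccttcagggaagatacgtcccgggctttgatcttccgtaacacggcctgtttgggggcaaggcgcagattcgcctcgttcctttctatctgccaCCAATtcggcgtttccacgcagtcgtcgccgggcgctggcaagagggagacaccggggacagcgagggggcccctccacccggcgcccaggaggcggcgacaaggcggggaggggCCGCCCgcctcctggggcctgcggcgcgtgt

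The Adcy1 and Adcy3 windows were rich in CpG pairs, with 26 and 27, while that of Aqp1 held 5. The Adcy1 window had 3 GC boxes and 1 E box, the Adcy3 window 1 GC box and 1 CCAAT box, and the Aqp1 window 1 GC box. A second Adcy3 start, with its window at chr12:4133903-4134152, had no match to these motifs. The RefSeq starts differ from the GENCODE gene positions given below. Both Adcy3 windows lie within the gene as GENCODE places it (4133103 to 4213525). RefSeq windows were found for 26 of the 35 members, 40 windows in all. The full cAMP response element (TGACGTCA) was in 0 of the 40 and in 1.55% of the 32851 windows of all genes. The GC box was in 17 of 40 (32.7% of all windows), the CCAAT box in 10 (33.8%), the E box in 7 (6.02%) and the TATA box (TATAAA) in 7 (12.4%). A match is a description of the letters, not a site of binding.

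The secretin receptor and its G protein gave little RNA in either line. Sctr, the receptor, had 0 counts in all 6 libraries, which allows up to 3 counts over a group, or 0.0501 CPM in MPC and 0.0487 CPM in MPC-PTX, for counting error only. Gnas, the stimulatory G protein alpha subunit, had 38, 51 and 83 counts in MPC and 35, 61 and 36 in MPC-PTX. These overlapped, with a log2 fold change of -0.44 (SE 0.32, adjusted p = 0.3394). Gnas is an abundant transcript in most cells, and its locus holds several overlapping and antisense transcripts. The antisense gene Gm20721, over 13.1% of its exon bases, was at 0 in all libraries, and whether the counting dropped reads at this locus was not tested. The Gnas values are therefore uncertain.

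Among the adenylyl cyclases, which make cAMP, Adcy1 was 3.25-fold lower in MPC-PTX, Adcy3 was 1.58-fold higher, and Adcy6, the most abundant, was 1.29-fold lower. Adcy1, a cyclase stimulated by calcium and calmodulin (chromosome 11 of GRCm38, 7063489 to 7178506), had 51.5, 53 and 51.2 CPM in MPC and 17.3, 14.8 and 15.7 CPM in MPC-PTX. The lowest MPC library was thus far above the highest MPC-PTX library, and the log2 fold change was -1.70 (SE 0.09, adjusted p = 2.972e-05). Adcy3, known from olfactory neurons and primary cilia (chromosome 12, 4133103 to 4213525), had 10.9, 10.4 and 12.2 CPM in MPC and 17.7, 17 and 18.4 CPM in MPC-PTX. All 3 MPC-PTX libraries were above all MPC libraries, with a log2 fold change of 0.66 (SE 0.10, adjusted p = 0.002959). Adcy6, a cyclase inhibited by calcium (chromosome 15, 98589973 to 98610076), had 83.4, 85.8 and 94.2 CPM in MPC and 69.2, 67 and 67.9 CPM in MPC-PTX, with a log2 fold change of -0.37 (SE 0.07, adjusted p = 0.008586). Its groups were apart as well, but without MPC-PTX replicate 2 the adjusted p was 0.05447.

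Adcy7 and Adcy9 were measured at low to moderate levels and were not called, with log2 fold changes of 0.09 (SE 0.18) and -0.03 (SE 0.19). Adcy4 had 1 to 4 counts, Adcy5 1 to 8 and Adcy2 0 to 1, and Adcy8 was at 0 in all libraries, so these 4 were not tested. Exons of Adcy3 overlap those of the antisense gene Cenpo over 22.1% of their bases. Cenpo moved the other way, with a log2 fold change of -0.39 (SE 0.10, adjusted p = 0.02674), and without stated strand use the reads of the overlap cannot be told apart.

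Per kilobase of transcript the cyclases could be ranked against each other. The mean level of Adcy6 was 14.5 CPM per kb in MPC and 11.3 in MPC-PTX, that of Adcy1 4.24 and 1.3, and that of Adcy3 1.98 and 3.15. Adcy1 therefore stood above Adcy3 in every MPC library and below it in every MPC-PTX library. Of the summed cyclase level, Adcy1 made up 19.6, 19.7 and 17.4% in MPC and 7.99, 7.06 and 7.33% in MPC-PTX, and Adcy3 9.07, 8.39 and 9.01% in MPC and 17.8, 17.7 and 18.6% in MPC-PTX. The share of Adcy6 stayed between 64.1 and 65% in all 6 libraries. The sum of the 9 genes was 21.5, 22 and 24 CPM per kb in MPC and 17.7, 17.1 and 17.5 in MPC-PTX, with every MPC-PTX library below every MPC library.

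**Figure D2:**
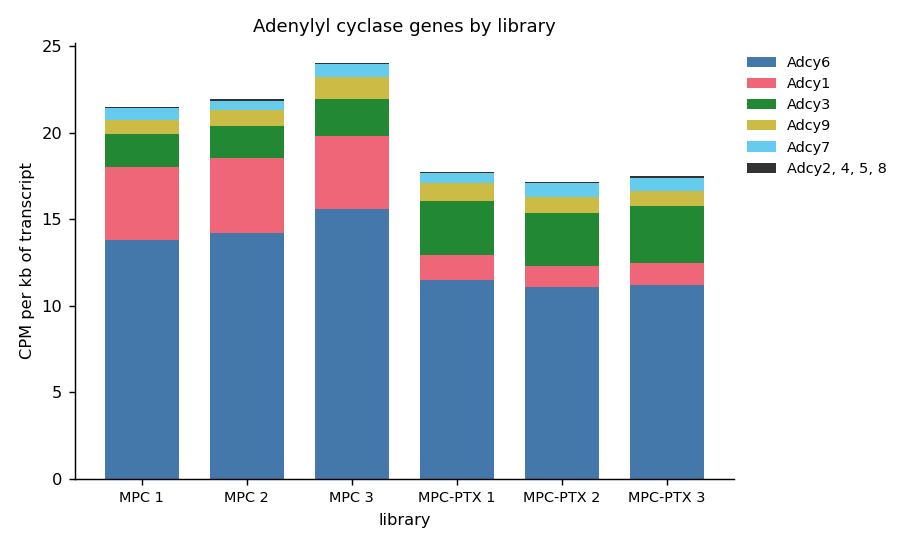
Stacked levels of the adenylyl cyclase genes in CPM per kb of the longest transcript, one bar per library. Adcy6 is the largest block in all 6 bars, and Adcy1 and Adcy3 change places between the 3 MPC and the 3 MPC-PTX libraries.

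The catalytic subunits of protein kinase A, through which cAMP acts, were not called. Prkaca had 182.7 to 212.9 CPM in MPC and 220.8 to 225.4 CPM in MPC-PTX, without overlap, and a log2 fold change of 0.18 (SE 0.07, 95% interval 0.01 to 0.34, adjusted p = 0.09781). Prkacb had 107.6, 118.5 and 130.6 CPM in MPC and 129.6, 132.2 and 135.7 CPM in MPC-PTX, which overlap, with a log2 fold change of 0.16 (SE 0.08, adjusted p = 0.1955).

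The carriers of bicarbonate and protons gave one call. Slc4a2, the chloride and bicarbonate exchanger that brings bicarbonate into bile (chromosome 5, 24423837 to 24440950), had 175.5, 149.3 and 139.5 CPM in MPC and 210.8, 202.4 and 210.1 CPM in MPC-PTX. All MPC-PTX libraries were higher, with a log2 fold change of 0.42 (SE 0.09, adjusted p = 0.01188). The call was lost without MPC replicate 2 (adjusted p = 0.05843), MPC-PTX replicate 1 (0.05657) or MPC-PTX replicate 3 (0.05602), and the log2 fold change was 0.30 without MPC replicate 3. Its exons overlap those of the antisense gene Fastk over 13.7% of their bases, and Fastk had a log2 fold change of 0.40 (SE 0.12, adjusted p = 0.04817).

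Slc4a2 rose together with its chromosomal neighbours. Its tested neighbours within 1 Mb numbered 23, of which 23 had a value above 0 and 18 were called higher, with a median log2 fold change of 0.56, against a median of 0.11 over the rest of chromosome 5. Among all 8518 tested genes with at least 10 tested neighbours, 1.09% had neighbours that were all positive. These windows were looked at after the values of the members were known, and the part of the neighbourhood in the change of Slc4a2 was not tested.

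Slc4a4, the sodium and bicarbonate cotransporter, was the other abundant exchanger gene, with 150.1, 234.5 and 319.7 CPM in MPC and 243.1, 254.5 and 252.1 CPM in MPC-PTX. The spread within MPC exceeded the difference between the lines (log2 fold change 0.09, SE 0.24, 95% interval -0.49 to 0.67). Slc4a5, a relative of it, had 0 to 3 counts and Slc9a3, a sodium and proton exchanger, 1 to 6, both below the filter.

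The bile acid carriers were barely expressed. Slc10a2, which takes bile acids up from the lumen of ileum and bile ducts, had 22, 38 and 71 counts in MPC and 51, 49 and 44 in MPC-PTX, with the MPC-PTX libraries inside the MPC range (log2 fold change 0.08, SE 0.36, adjusted p = 0.8847). Slc10a1, the hepatocyte uptake carrier, had 0 to 9 counts. Of the basolateral exporter, Slc51a had 2, 6 and 7 counts in MPC and 2, 2 and 0 in MPC-PTX, and Slc51b had 0 in every library. These 3 were not tested.

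The glucose carriers also showed no call. Slc2a1, the general glucose uptake carrier, had 57.5 to 63 CPM in MPC and 58.2 to 60.8 CPM in MPC-PTX, and its log2 fold change of 0.00 had a 95% interval of -0.17 to 0.16. Slc5a1, the sodium and glucose cotransporter, had 6, 18 and 21 counts in MPC and 20, 7 and 7 in MPC-PTX (log2 fold change -0.49, SE 0.54, adjusted p = 0.53).

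The 2 tested aquaporins moved in opposite directions. Aqp1, the water channel of cholangiocytes, red cells and endothelium (chromosome 6, 55336432 to 55348555), had 28, 29 and 18 counts in MPC and 79, 86 and 51 in MPC-PTX. As CPM these were 1.49, 1.5 and 0.865 against 3.38, 3.88 and 3.03, so the groups were apart at a low level. The log2 fold change was 1.43 (SE 0.25, adjusted p = 0.005088), and 1.15 without MPC replicate 3.

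Aqp4, the water channel of astrocytes and also of gastric parietal cells (chromosome 18, 15389496 to 15410982), had 41, 83 and 118 counts in MPC and 28, 29 and 32 in MPC-PTX. The lowest MPC library, at 2.18 CPM, was close to the highest MPC-PTX library, at 1.9 CPM, and the MPC libraries differed among themselves by more than the gap between the lines. The log2 fold change was -1.49 (SE 0.38, adjusted p = 0.02301). It was no longer called without MPC replicate 2 (adjusted p = 0.07938), MPC-PTX replicate 1 (0.09591) or MPC-PTX replicate 2 (0.0948). Parietal cell markers such as Atp4a and Atp4b were within the gastric list that had at most 10 counts.

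Aqp9, a channel for glycerol and water, had 3, 16 and 16 counts in MPC and 3, 2 and 2 in MPC-PTX, and missed the filter. In depth-scaled counts MPC held 5.15 times as much as MPC-PTX (95% counting interval 2.25 to 13.7). When no filter was used it had a log2 fold change of -2.33 (SE 0.71, adjusted p = 0.03877). Aqp8 had 0 to 9 counts. The sum of the 4 aquaporin genes per kilobase was 1.05, 2.03 and 1.89 CPM per kb in MPC and 1.68, 1.83 and 1.61 in MPC-PTX, overlapping, while the share of Aqp1 in it was 53.7, 28.1 and 17.4% in MPC and 76.3, 80.7 and 71.5% in MPC-PTX.

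Aqp1 also lay among genes that rose. Its tested neighbours within 1 Mb numbered 10, of which 10 had a positive value and 8 were called higher, and their median log2 fold change was 0.84, against 0.01 for the rest of chromosome 6. Around Adcy1 the 13 tested neighbours had a median of -0.01, with 3 called higher and 0 called lower by edgeR, and around Adcy3 the 17 neighbours had a median of 0.20, with 0 called higher and 3 called lower. Around the other called members the tested neighbours went both ways. Those above 0 were 8 of 14 for Atp1b1, 10 of 14 for Atp1b3 and 21 of 38 for Adcy6. For Ephx1 they were 7 of 16, and for Aqp4 1 of 3.

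The beta subunits of the sodium pump, which help the pump to reach the membrane, were higher for the 2 abundant genes. Atp1b1 (chromosome 1, 164437109 to 164458355) had 202.9, 201.8 and 223 CPM in MPC and 268.3, 247.7 and 272.2 CPM in MPC-PTX, without overlap (log2 fold change 0.33, SE 0.07, adjusted p = 0.01105). Atp1b3 (chromosome 9, 96332655 to 96364442) had 113.2, 118.1 and 122.6 CPM in MPC and 137.7, 141.4 and 137.4 CPM in MPC-PTX, also without overlap (log2 fold change 0.24, SE 0.06, adjusted p = 0.02377). Atp1b2, the third gene, had 18, 35 and 71 counts in MPC and 47, 52 and 27 in MPC-PTX, with a log2 fold change of -0.05 (SE 0.42).

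The calls of the beta subunits were close to the threshold. Atp1b1 lost its call without MPC replicate 2 (adjusted p = 0.0548), MPC-PTX replicate 1 (0.06043) or MPC-PTX replicate 3 (0.06145). Atp1b3 lost it without MPC replicate 2 (0.0812) or any one MPC-PTX library (0.09221 to 0.1187), and with DESeq2, its size factors or a stricter filter. The antisense gene Nme7 shares 18.7% of the exon bases of Atp1b1 and went the other way, with a log2 fold change of -0.35 (SE 0.08, adjusted p = 0.0199).

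Per kilobase, the beta genes summed to 136, 138 and 149 CPM per kb in MPC and 174, 168 and 175 in MPC-PTX, with all MPC-PTX libraries above all MPC libraries. Atp1b1 made up 56.7 to 58.1% of this sum in MPC and 57.3 to 60.3% in MPC-PTX, and Atp1b3 41.3 to 42.9% and 39.4 to 42.3%, so that the shares overlapped while the sum did not. Atp1b2 was below 1% of the sum in every library.

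**Figure D3:**
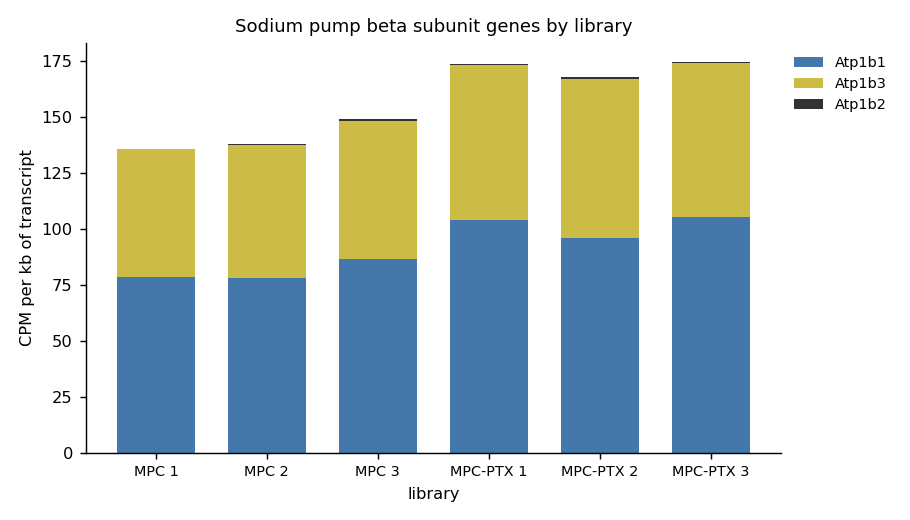
Stacked levels of the sodium pump beta subunit genes in CPM per kb of the longest transcript, one bar per library; Atp1b2 is at most a thin line at the top. The bars reach 136 to 149 in the 3 MPC libraries and 168 to 175 in the 3 MPC-PTX libraries.

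Of the genes of bile acid and lipid handling, Ephx1 was called. Ephx1, the microsomal epoxide hydrolase (chromosome 1, 180976210 to 181020904), had 77.1, 82.8 and 69.2 CPM in MPC and 63.5, 61.7 and 63 CPM in MPC-PTX. The groups were apart, with a log2 fold change of -0.28 (SE 0.08, adjusted p = 0.03786). Among the settings under which this call was lost were those without MPC replicate 2 (0.1288) or any one MPC-PTX library (0.1213 to 0.1464), and the library size alone as the scale (0.06244). Scarb1, a receptor that takes up cholesterol from high density lipoprotein, had 114.7, 97.8 and 83.3 CPM in MPC and 111.1, 114.9 and 108.2 CPM in MPC-PTX, which overlap (log2 fold change 0.18, SE 0.11, adjusted p = 0.2844).

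Among the members, Cyp7a1 and Baat, enzymes of bile acid synthesis, were at or near 0. Cyp7a1, the rate-limiting enzyme of the classic route, had 0 counts in all 6 libraries, and Baat, which joins bile acids to taurine or glycine, had 0 to 2. Kcnn2, a calcium-activated potassium channel of bile duct cells, had 0 to 1. In all, 4 members were at 0 in every library, namely Cyp7a1, Sctr, Adcy8 and Slc51b, and the 15 members below the filter reached at most 16 counts.

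**Figure D4:**
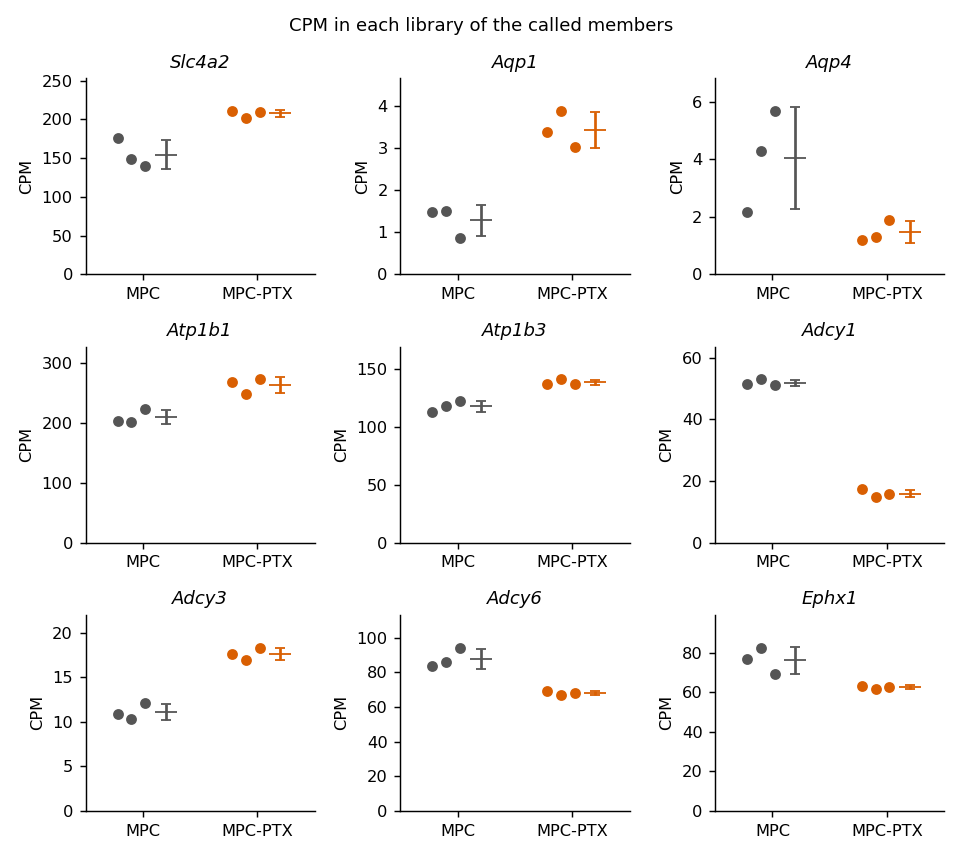
CPM in each library of the 9 called members, with MPC in grey and MPC-PTX in orange; the line and bar beside the points are the mean and SD of 3 libraries, and each axis starts at 0. The groups do not overlap in any of the 9 panels, and the spread within MPC is widest, relative to the mean, for Aqp4.

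Other genes of the same processes were counted from 3 lists. At an adjusted p below 0.05, 14.1% of all tested genes were higher and 15.6% lower. Whether the lists differ from these shares was not tested. In the rest of the bile secretion pathway 12 of 28 genes were tested, of which 4 were higher and 4 lower, with a median log2 fold change of -0.05. All 4 that were higher had a log2 fold change above 1. Cftr, the chloride channel that cAMP opens, had 21, 9 and 22 counts in MPC and 180, 152 and 130 in MPC-PTX, a log2 fold change of 3.07 (SE 0.26, adjusted p = 0.0002453). The others were the drug and lipid exporters Abcb1a (2.19), Abcb1b (2.07) and Abcb4 (3.50). These 3 lie in the same stretch of chromosome 5 (8660077 to 8959231). Whether they rose independently of each other was not tested. The near-identical Abcb1a and Abcb1b may share reads, and their separate values are uncertain. Of those that were lower, Abcc3, an exporter of conjugates, had a log2 fold change of -1.57, and Abcg2, an exporter of drugs and urate, had 25, 24 and 25 counts in MPC and 1, 0 and 1 in MPC-PTX, 38.1-fold lower in depth-scaled counts (95% counting interval 10.2 to 320).

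In the list of cAMP partners, which holds G proteins, phosphodiesterases, kinase regulators and anchors, 20 of 27 genes were tested, with 4 higher and 4 lower and a median log2 fold change of 0.05. Pde4b, a phosphodiesterase that breaks down cAMP, had 2.29, 2.32 and 2.35 CPM in MPC and 19.7, 18 and 18.2 CPM in MPC-PTX (log2 fold change 3.00, SE 0.11, adjusted p = 9.177e-06). Rapgef3, the cAMP-activated exchange factor Epac1, had 3.14, 2.99 and 2.64 CPM in MPC and 7.3, 8.03 and 7.61 CPM in MPC-PTX (log2 fold change 1.39, SE 0.13, adjusted p = 0.0003868). Prkar1b, a regulatory subunit of protein kinase A, was lower at 16, 16 and 13 counts in MPC and 8, 7 and 5 in MPC-PTX (log2 fold change -1.24, SE 0.32, adjusted p = 0.02485). Prkar2a and Akap1 were also higher, by 0.37 and 0.26 on the log2 scale, and Gnai2 (-0.40), Ezr (-0.44) and Sstr2 (-0.95) were lower.

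In the list of bile acid synthesis 7 of 15 genes were tested, with 2 higher and 1 lower and a median log2 fold change of 0.10. Cyp27a1, the sterol hydroxylase that starts the alternative route, had 0, 4 and 0 counts in MPC and 30, 23 and 22 in MPC-PTX (log2 fold change 4.03, SE 0.71, adjusted p = 0.005498). Cyp39a1 was also higher (log2 fold change 0.43, SE 0.12, adjusted p = 0.03039). Acox2 was the lower gene, with 48.4, 49.5 and 42.3 CPM in MPC and 26.7, 24.7 and 23.9 CPM in MPC-PTX. Its log2 fold change was -0.90 (SE 0.09, adjusted p = 0.0005923). Ch25h, which makes another oxysterol, was below the filter with 0 counts in MPC and 13, 9 and 7 in MPC-PTX. With MPC set at a floor of 3 counts over the group and the MPC-PTX counts taken as exact, Ch25h was 9.39-fold higher. This is not a lower bound, as the counting interval of MPC over MPC-PTX in depth-scaled counts reached up to 0.14.

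**Figure D5:**
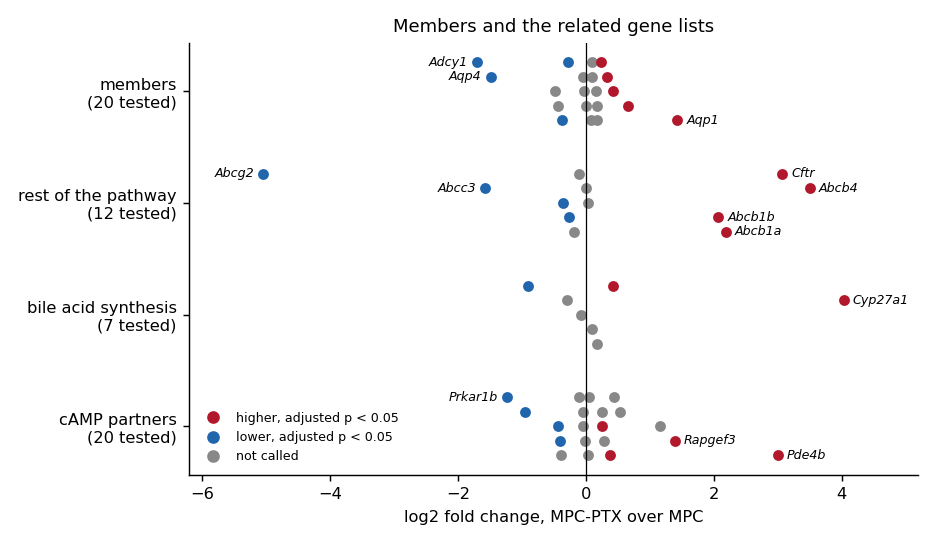
Log2 fold change of MPC-PTX over MPC for each tested gene of the members and of the 3 related lists, spread vertically within a list only for legibility. Red and blue mark an adjusted p below 0.05, grey marks genes not called, and the named genes are those called with an absolute value above 1, of which 3 are members.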

How the data were processed

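RNA of 3 MPC and 3 MPC-PTX libraries was analysed. The authors made poly-A libraries, cleaned reads with fastp 0.22.0, aligned to the mouse genome using HISAT2 and deposited raw read counts per gene, neither normalized nor pooled. The genome build, annotation, counting tool, use of strand and treatment of multi-mapping reads are not given in the sources used here, so overlapping and near-identical genes are uncertain. Totals were 16574580 to 23148182 counts. The sample tables and the series table held the same values.

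Counts were scaled by TMM, filtered with filterByExpr (minimum count 10), and tested with edgeR 4.0.16 (glmQLFit, robust, and glmQLFTest; R 4.3.3) on 11795 genes, with p adjusted by the Benjamini-Hochberg method. A standard error (SE) is the size of the log2 fold change divided by the square root of F. CPM use the TMM-scaled library size. Levels per kb use the longest transcript of GENCODE M21 (GRCm38), matched by Ensembl identifier, as are exon overlaps and neighbours within 1 Mb. Intervals on counts are at 95% (Clopper-Pearson) and, with floors of 3 counts, hold for counting error alone, as reads lacking molecular identifiers may be copies of one molecule. With 3 libraries against 3, an exact permutation test of one value cannot give a p below 0.1. The fit was tested on simulated counts.

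The members and lists were chosen with earlier results of these data known. Every member was named, called ones with values in all libraries, as were genes of the related lists called at an adjusted p of 0.05 with a log2 fold change beyond 1 in size; others are named as chosen after their values were seen. Promoter windows are RefSeq's on GRCm38.p6. Protein sequences were not used here. Some genes of the pathway are not reported here. The alternatives were DESeq2 1.42.0, its size factors, library size alone, no filter, a minimum of 10 counts in each sample, a replicate block, an offset for GC content and length (loess, span 0.3), that offset with the block, and each library left out.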

Additional observations from a re-analysis of the deposited data

How the results depend on the processing

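Over 14 alternatives no called member changed direction, and Adcy1 (log2 fold change -1.94 to -1.65), Adcy3 (0.61 to 0.70) and Aqp1 (1.15 to 1.55) were called in all 14. Adcy6 was called in 13, Slc4a2, Atp1b1 and Aqp4 in 11, Ephx1 in 8 and Atp1b3 in 7. Prkaca became called in 4 alternatives, and Prkacb and Scarb1 in 1 each. The members called higher numbered 4 to 6 and those called lower 3 to 5 when no library was left out, and 2 to 7 and 1 to 5 with 1 library left out: 2 higher and 2 lower without MPC replicate 2 or MPC-PTX replicate 1, 4 and 1 without MPC-PTX replicate 2, and 2 and 3 without MPC-PTX replicate 3. Over all genes, 1668 were called higher and 1841 lower with every library. These calls rose to 3020 and 3227 without MPC replicate 3 and to 2201 and 2119 without MPC replicate 1. They fell to 934 and 1222 without MPC replicate 2, and without a MPC-PTX library they were 803 to 840 higher and 1077 to 1122 lower. The replicate numbers did not pair the samples (correlations of deviations 0.11, -0.02 and 0.14, and not every sample correlated best with its own number); with the replicate block 5 members were higher and 3 lower, Ephx1 being lost (adjusted p = 0.05695). Other scalings moved the median of all genes by at most 0.04 on the log2 scale. Low depth limits Aqp1, Aqp4, Gnas, Slc10a2, Slc5a1, Atp1b2, Adcy7 and Adcy9, which had at most 129 counts in a library, and the 15 members below the filter; the cause of the spread among the MPC libraries was not tested.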

Other observations

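The tested genes within 1 Mb of the 11 members that were tested and not called were looked at after the values were seen, and the shares below have no background over all genes. On chromosome 8, where the median log2 fold change outside each window was 0.26 against 0.04 for all tested genes, 6 of 6 neighbours of Adcy7 were above 0 (median 0.50), 11 of 12 of Slc10a2 (median 0.41) and 39 of 46 of Prkaca (median 0.25). On chromosome 5 these were 6 of 8 for Slc4a4 (0.21), 18 of 24 for Slc5a1 (0.17) and 13 of 19 for Scarb1 (0.05). They were 13 of 20 for Slc2a1 (0.11), 42 of 68 for Atp1b2 (0.12), 7 of 10 for Prkacb (0.16) and 4 of 9 for Gnas (-0.05). Around Adcy9, 7 of 34 were above 0 and 27 below (median -0.22).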
